A study of Arabidopsis thaliana with 6 samples.

Results

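TI2 (AT2G43520) is one of 5 neighbouring trypsin inhibitor genes on chromosome 2 of Arabidopsis thaliana, and its transcript was lower in AN3-GR leaves than in wild type leaves. The other genes are TI1 (AT2G43510), AT2G43530, AT2G43535 and AT2G43550, and the probe sets are named AT2G43510_at, AT2G43520_at, AT2G43530_at, AT2G43535_at and AT2G43550_at. They were chosen by their position around TI2, and TI2 itself stood out in the comparison of these same arrays, so the differences between genotypes are a description of the genes. All 5 were measured, among 21428 probe sets in all, each of which carries the identifier of 1 locus. AN3-GR plants carry AN3, a coactivator of transcription in growing leaves, joined to the steroid-binding domain of the glucocorticoid receptor, so that the fusion protein acts only when dexamethasone is given. The AN3-GR group and the wild type group (WT) were both of accession Columbia-0, grown in vitro in days with 16 h of light and 8 h of dark, and moved at day 8 after stratification to medium with 5 µM dexamethasone for 8 h. Leaves 1 and 2 were then dissected, and total RNA from 3 biological repeats of each genotype was hybridised to Affymetrix ATH1 arrays, 6 in all. The sources used here do not give the promoter of the transgene or the number of independent lines. AN3-GR plants without dexamethasone were not analysed here, so a standing difference between the lines and a response to the activated fusion cannot be told apart.

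Trypsin inhibitors of the mustard family are small secreted proteins held together by disulphide bridges, with a fold like that of plant defensins. They block trypsin-like serine proteases, including digestive enzymes of leaf-feeding insects, and protease inhibitor genes of plants are well known to respond to wounding and jasmonate. TI1 and TI2 bear the name trypsin inhibitor in the RefSeq gene table. For AT2G43530, AT2G43535 and AT2G43550 the table gives a locus only.

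The expression values are log2 values after RMA, so a difference of 1 is a doubling, and changes are given as AN3-GR minus WT. The label was first checked on AN3, whose values were 10.56, 10.02 and 10.55 in AN3-GR, against 7.39, 6.98 and 7.61 in WT (replicates 1 to 3), although its probe set does not separate transgene from native transcript. Array medians lay between 6.22 and 6.32, and Pearson's r across genes was 0.993 to 0.997 within a genotype and 0.990 to 0.995 between genotypes. The 4 measured leaf mesophyll markers, CA1, RCA, GAPA and PSAD-1, had means of 12.62 to 13.71. Of 7 shoot meristem and boundary markers 5 had means under 4.06, the lower quartile of all values, as did 2 of 6 root markers.

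TI2 had values of 8.26, 8.17 and 8.05 in AN3-GR replicates 1 to 3, against 9.03, 9.15 and 8.97 in WT. The arrays of each genotype lay close together, and the lowest WT array stood 0.71 above the highest AN3-GR array. The mean was 8.16 ± 0.10 in AN3-GR and 9.05 ± 0.09 in WT (SD, n = 3 each), which is a 1.85-fold lower level in AN3-GR. The log2 change was −0.89 (SE 0.10), with an adjusted p of 0.0136 from limma with Benjamini-Hochberg adjustment over all probe sets. This value belongs to the contrast that brought TI2 forward. By size the fall of TI2 was number 13 of the 49 falls past an adjusted p of 0.05, and by p-value TI2 was number 13 among all probe sets.

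The fall of TI2 kept its size when arrays were left out, while its call mostly ended. With any single array left out the log2 change lay between −0.94 and −0.84. The adjusted p from limma was 0.0647, 0.0605 and 0.0521 without AN3-GR replicate 1, 2 or 3, then 0.0528 and 0.0976 without WT replicate 1 or 2, and 0.0113 without WT replicate 3.

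**Figure D1:**
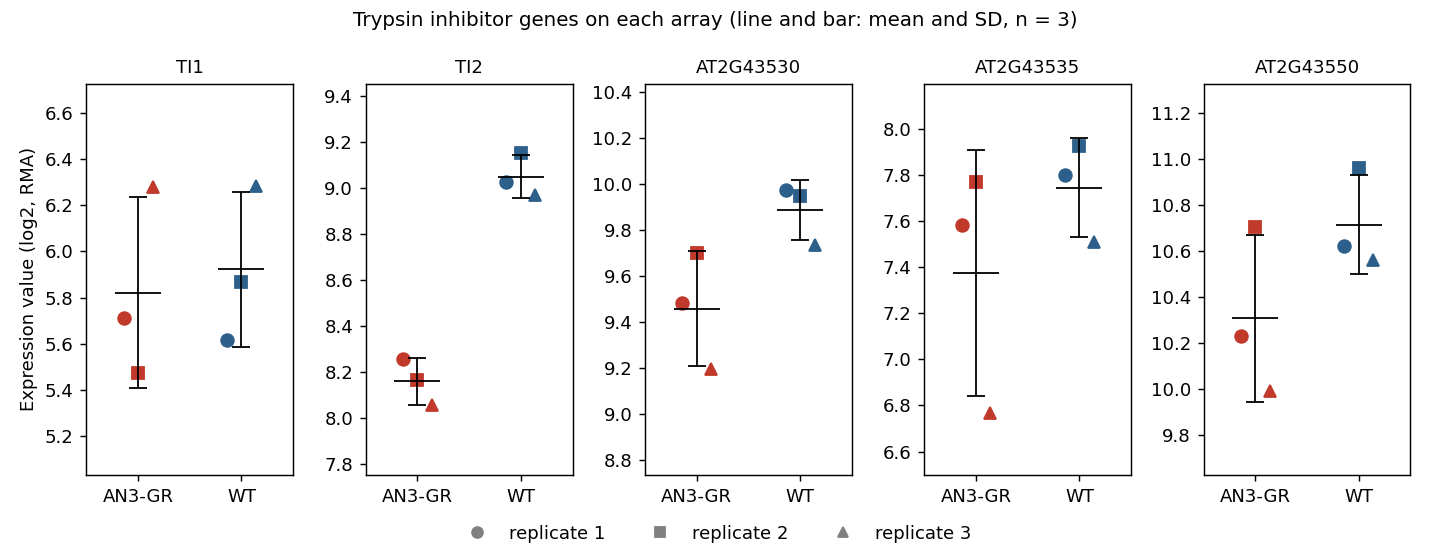
Expression values (log2, vertical axis) of the 5 trypsin inhibitor genes on each array, AN3-GR at the left and WT at the right of each panel; symbols stand for replicate numbers, lines and bars for mean and SD (n = 3), and every panel spans the same height. TI2 shows a clear gap of 0.71 between the genotypes, AT2G43530 a gap of 0.04, and the other genes overlap.

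AT2G43530, the next gene after TI2, had values of 9.48, 9.70 and 9.20 in AN3-GR, against 9.97, 9.95 and 9.74 in WT. The AN3-GR arrays all lay under the WT arrays, but the nearest pair was only 0.04 apart. The mean was 9.46 ± 0.25 in AN3-GR and 9.88 ± 0.13 in WT (SD, n = 3 each), a log2 change of −0.43 (SE 0.14). It did not pass the test over all probe sets (adjusted p = 0.157 in limma), and it passed with the replicate number as a block (adjusted p = 0.0438).

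AT2G43550, the last gene of the row, had values of 10.23, 10.70 and 9.99 in AN3-GR, against 10.62, 10.96 and 10.56 in WT. AN3-GR replicate 2 lay above WT replicates 1 and 3, so the genotypes overlapped. The mean was 10.31 ± 0.36 in AN3-GR and 10.72 ± 0.22 in WT (SD, n = 3 each), with a log2 change of −0.41 (SE 0.18). The limma adjusted p was 0.283 without the replicate block and 0.0483 with it. Without AN3-GR replicate 3 the change was −0.25.

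AT2G43535 varied most among the AN3-GR arrays. It had values of 7.58, 7.77 and 6.77 in AN3-GR, against 7.80, 7.93 and 7.51 in WT, and the AN3-GR array of replicate 3 lay apart from the others. The mean was 7.37 ± 0.53 in AN3-GR and 7.75 ± 0.22 in WT (SD, n = 3 each). The log2 change of −0.37 (SE 0.24) did not pass (limma, adjusted p = 0.440, and 0.132 with the replicate block), and it was −0.07 without AN3-GR replicate 3 and −0.57 without AN3-GR replicate 2.

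TI1, the first gene of the row and the other one named as a trypsin inhibitor, differed little. It had values of 5.71, 5.47 and 6.28 in AN3-GR, against 5.62, 5.87 and 6.28 in WT. The replicate 3 arrays of both genotypes were almost equal and were the highest of their genotype. The mean was 5.82 ± 0.41 in AN3-GR and 5.92 ± 0.34 in WT (SD, n = 3 each), with a log2 change of −0.10 (SE 0.22; limma, adjusted p = 0.841). The sign turned to positive when AN3-GR replicate 2 (0.07) or WT replicate 3 (0.08) was left out, and the change was −0.33 without AN3-GR replicate 3 and −0.25 without WT replicate 1.

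Of the 5 genes, 1 thus passed as lower and 0 as higher, where 0.229% of all probe sets passed as lower and 0.56% as higher. Without adjustment 2 of the 5, TI2 and AT2G43530, had a p under 0.05 in limma, as did 18% of all probe sets. All 5 changes were negative with a median of −0.41, beside a median of −0.02 over all probe sets, 54.2% of which were negative. The median of the 4 genes besides TI2 was −0.39. With the replicate block 3 passed as lower, TI2 (adjusted p = 0.0149), AT2G43530 and AT2G43550, where 3.03% of all probe sets did. In 2 of the 5, TI2 and AT2G43530, every AN3-GR array lay under every WT array, as in 9.4% of all probe sets. Since the contrast chose TI2, these shares are given beside the counts and nothing is read from them. Tandem genes of one family can be similar in sequence, and whether their probes also bind a neighbour's transcript was not tested, but 0 of the 5 had values identical to those of another probe set.

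Between arrays of the same replicate number, TI2 differed by −0.77, −0.98 and −0.91 for numbers 1 to 3. These differences are all larger than any of the other 4 genes, although the largest of those, −0.74 for AT2G43535 at number 3, came close. AT2G43530 had differences of −0.49, −0.25 and −0.54, and AT2G43550 of −0.39, −0.26 and −0.57. For AT2G43535 they were −0.22, −0.16 and −0.74. In AT2G43530, AT2G43535 and AT2G43550 number 2 thus gave the smallest difference and number 3 the largest, whereas TI2 had its largest at number 2. TI1 gave 0.09, −0.39 and −0.01, and so was the 1 gene whose differences did not all point one way. The other 4 were lower in AN3-GR at all 3 numbers, as were 23.6% of all probe sets.

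**Figure D2:**
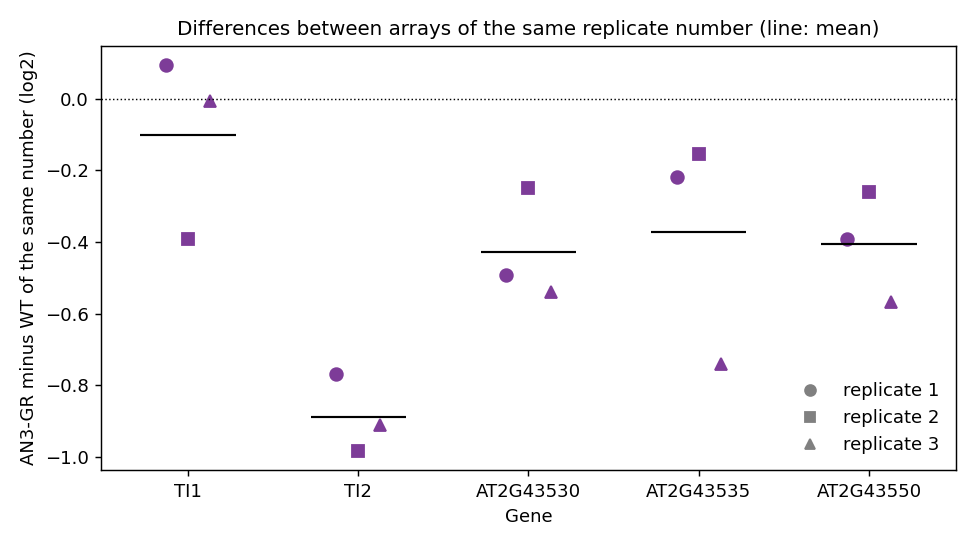
AN3-GR minus WT within each replicate number (log2, vertical axis) for the 5 genes, with 1 symbol per number and a line at the mean. TI2 lies between −0.98 and −0.77, below all points of the other genes, and TI1 spreads around 0.

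Replicate 3 stood to one side of replicates 1 and 2 in all 5 genes, low in 4 and high in TI1. Replicate 3 was the lowest array of its genotype in both AN3-GR and WT for TI2, AT2G43530, AT2G43535 and AT2G43550, 4 of the 5, and the highest in both for TI1. Over all probe sets these patterns held for 20.4% and 19.9%, so each is common on these arrays. AT2G43535 in replicate 3 stood −0.91 from the mean of replicates 1 and 2 in AN3-GR and −0.36 in WT. For AT2G43530 the offset was −0.39 in AN3-GR and −0.22 in WT, and for AT2G43550 −0.47 in AN3-GR and −0.23 in WT. TI2 moved least, with −0.16 in AN3-GR and −0.12 in WT. The contrast that brought TI2 forward favours genes with little spread within a genotype, so its small offset is not independent of that choice. TI1 moved the other way, by 0.69 in AN3-GR and 0.54 in WT. The offset of TI2 between replicates was thus small beside its difference between genotypes, while for TI1 in both genotypes, and for AT2G43535 and AT2G43550 in AN3-GR, the offset was larger than the difference between genotypes. These 3 numbers come from the labels, and no label says whether they mark a shared day or tray.

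None of the measured loci around or inside the row passed the test. RefSeq lists 6 genes from TI1 to AT2G43550, all measured, and the one that is no member, AT2G43540, sits between AT2G43535 and AT2G43550. AT2G43540 had values of 6.27, 6.28 and 6.46 in AN3-GR, against 6.04, 6.45 and 6.33 in WT, and the genotypes overlapped. Its log2 change was 0.07 (SE 0.12; limma, adjusted p = 0.804). The nearest measured locus before TI1, AT2G43500, which the table also names NLP8, had a change of −0.01 (SE 0.11), AT2G43480 had −0.12 (SE 0.12) and AT2G43460 had 0.12 (SE 0.10). After AT2G43550, AT2G43560 had a change of −0.15 (SE 0.09), the chitinase gene CHI −0.08 (SE 0.09) and AT2G43580 −0.03 (SE 0.11). For these 7 loci the limma adjusted p lay between 0.394 and 0.979, and 0 had an unadjusted p under 0.05. The AN3-GR arrays of AT2G43560 all lay under its WT arrays, with the nearest pair 0.11 apart, as in 9.4% of all probe sets. AT2G43560 and AT2G43480 were lower in AN3-GR at all 3 replicate numbers, as were 23.6% of all probe sets, and AT2G43460 was higher at all 3. AT2G43480, CHI and AT2G43580 had weak signals, with means under 4.06 in both genotypes. The differences between the changes of the row and those of its neighbours were not tested.

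**Figure D3:**
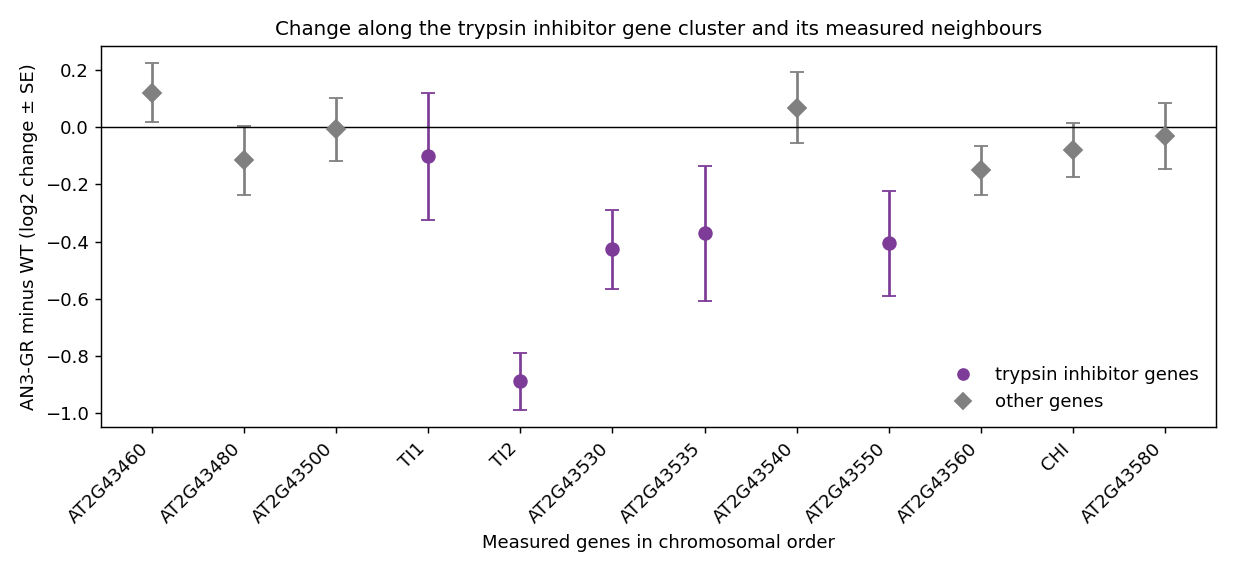
Log2 change, AN3-GR minus WT, with its standard error (vertical axis) for the 5 trypsin inhibitor genes (circles) and the other measured genes around them (diamonds) in chromosomal order, not to scale. TI2 lies lowest at −0.89, and the 7 other loci lie between −0.15 and 0.12.

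Protease inhibitors of other families, which block serine or cysteine proteases by other folds, were compared as a list. Of 23 listed, 19 were measured, and 0 passed as higher or lower in limma, also with the replicate block. Without adjustment 3 had a p under 0.05 in limma, beside 18% of all probe sets. Negative changes were 15 of the 19, beside 54.2% of all probe sets, and the median was −0.15. Mean levels of 8 of the 19 lay under 4.06, which limits what the list shows for those genes. The phytocystatin gene CYS2, which encodes an inhibitor of papain-like cysteine proteases, had the largest change, −0.38 (SE 0.13; limma, adjusted p = 0.189). Its values were 5.95, 5.68 and 6.14 in AN3-GR, against 6.21, 6.24 and 6.45 in WT, with no overlap. UPI, a serine protease inhibitor gene of the potato inhibitor type, had a change of −0.37 (SE 0.46). Its weak values of 3.32, 3.61 and 4.60 in AN3-GR, against 3.36, 4.02 and 5.26 in WT, overlapped widely. AT2G38870, also of the potato inhibitor type, had a strong signal, with 10.70, 10.71 and 10.76 in AN3-GR. In WT it had 11.01, 11.09 and 11.09, without overlap. The change of AT2G38870 was −0.34 (SE 0.09; limma, adjusted p = 0.0993, and 0.0503 with the replicate block).

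Plant defensins and thionins, other small cysteine-rich peptides of defence, were listed separately. Of 15 listed, 11 were measured, and 0 passed in limma with or without the replicate block. Without adjustment 1 had a p under 0.05, beside 18% of all probe sets. Negative changes were 10 of the 11, beside 54.2% of all probe sets, and the median was −0.07. The thionin gene THI2.2 had a change of −0.31 (SE 0.16) and LCR69, also named PDF2.2, of −0.26 (SE 0.11). Of the 11, 6 had mean levels under 4.06, so the list says little about those genes.

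Jasmonate and wound genes had the lowest median of the 4 lists, −0.34 over the 8 measured of 12. All 8 changes were negative, beside 54.2% of all probe sets, and 0 passed in limma. Without adjustment 4 had a p under 0.05, beside 18% of all probe sets. The same 4, LOX2, AOS, JAZ1 and CORI3, passed as lower with the replicate block, beside 3.03% of all probe sets. OPR3, TIFY10B, MYC2 and TAT3 changed less, by −0.17, −0.14, −0.21 and −0.03, and TAT3 had a weak signal. CORI3, a jasmonate-responsive gene, had values of 5.96, 6.58 and 5.18 in AN3-GR, against 7.53, 7.83 and 6.97 in WT, without overlap. Its log2 change was −1.54 (SE 0.33; limma, adjusted p = 0.0673, and 0.0093 with the replicate block). JAZ1, a repressor of jasmonate signalling, had 6.83, 6.43 and 7.25 in AN3-GR, against 7.72, 8.09 and 8.64 in WT, a change of −1.31 (SE 0.25; limma, adjusted p = 0.0511). LOX2 and AOS, which encode a lipoxygenase and allene oxide synthase of jasmonate synthesis, had changes of −1.11 (SE 0.41) and −0.46 (SE 0.16). CORI3, LOX2 and AOS were highest in replicate 2 and lowest in replicate 3 of both genotypes, 3 of the 8, as were AT2G43535 and AT2G43550, 2 of the 5 trypsin inhibitor genes, and 6.93% of all probe sets. The other 5 jasmonate genes did not have this order, and JAZ1 was highest in replicate 3 of both genotypes. This order was not set out beforehand, so its counts are a description. Whether the jasmonate genes and the trypsin inhibitor genes have a common cause was not tested.

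Salicylate defence genes had a median of −0.21 over 9 measured genes, of which 7 were negative, beside 54.2% of all probe sets. PR1 and PR5 were not negative, with changes of 0.05 (SE 0.13) and 0.18 (SE 0.19). In limma 0 passed, 4 had an unadjusted p under 0.05, and 2, WRKY70 and ACD6, passed as lower with the replicate block, beside the same 18% and 3.03% of all probe sets. WRKY70, a transcription factor of salicylate defence, had values of 7.67, 7.72 and 8.67 in AN3-GR, against 8.34, 8.93 and 9.24 in WT, and the genotypes overlapped. Its change was −0.82 (SE 0.29). ACD6, an ankyrin-repeat membrane protein of salicylate defence, had a change of −0.67 (SE 0.23) with a weak signal in AN3-GR, 3.65 ± 0.24, against 4.32 ± 0.50 in WT (SD, n = 3 each).

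**Figure D4:**
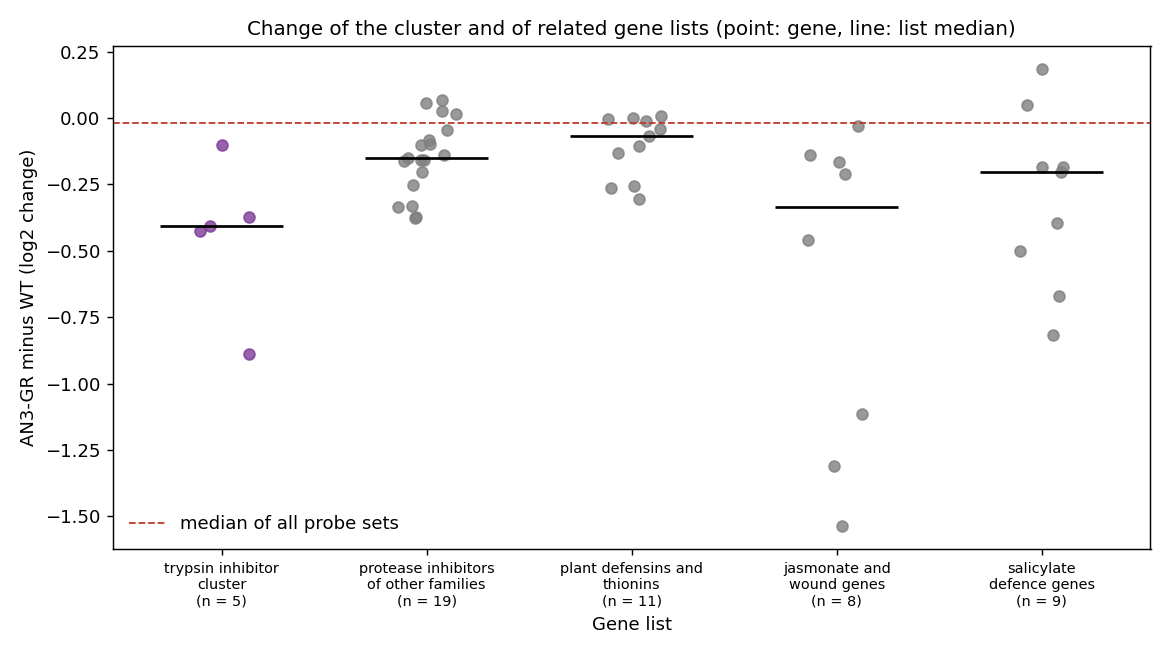
Log2 change, AN3-GR minus WT (vertical axis), of each measured gene in the trypsin inhibitor row and in 4 lists of related genes, with a line at the median of each and a dashed line at the median of all probe sets, −0.02. The lowest point among the trypsin inhibitor genes is TI2 at −0.89, and CORI3 at −1.54 is the lowest in the lists.

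Markers of leaf mesophyll had lower summed levels in AN3-GR, the direction of TI2. Of 8 mesophyll markers listed 4 were measured. Their level, summed on a linear scale, was 34740.5 to 39561 in AN3-GR and 41196.5 to 43808 in WT. Of the 4 changes 3 were negative, beside 54.2% of all probe sets, and the median was −0.21. PSAD-1 changed by 0.01 (SE 0.09). In limma 0 passed and 1 (CA1, carbonic anhydrase) had an unadjusted p under 0.05, beside 18% of all probe sets. With the replicate block CA1 passed as lower, as did 3.03% of all probe sets. The summed levels of the 6 root markers, 189 to 203 in AN3-GR and 182 to 224 in WT, overlapped, as did those of the 7 meristem markers, 84.9 to 93.6 in AN3-GR and 81.7 to 97.9 in WT. Those of the 5 vascular markers were 560 to 668 in AN3-GR and 578 to 648 in WT, and also overlapped. In limma 0 of the 5 passed and 1, APL, had an unadjusted p under 0.05, beside 18% of all probe sets. APL was higher in AN3-GR, by 0.28 (SE 0.10), the direction opposite to TI2. Negative changes were 3 of the 5 vascular, 4 of the 6 root and 7 of the 7 meristem markers, beside 54.2% of all probe sets. Their medians were −0.03, −0.13 and −0.05. The part of tissue content in the TI2 result was not tested, and in whole leaves fewer cells of a type and less RNA per cell cannot be told apart.

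The probe sets whose values followed TI2 most closely over the 6 arrays were AT5G24240, STR18, AMI1, AT1G26190 and AT1G56540, with Pearson's r of 0.993 to 0.996. The 6 arrays form 2 genotypes, so r is high for any transcript that differs between them with little spread within them, and no test was made. STR18, a sulfurtransferase gene, had values of 5.59, 5.47 and 5.49 in AN3-GR, against 6.12, 6.24 and 6.09 in WT, with a change of −0.63 (SE 0.09). AMI1, an amidase gene, changed by −0.32 (SE 0.09), and AT1G26190, also named TTM2, by −1.93 (SE 0.10). AT5G24240 had a change of −2.55 (SE 0.14) and AT1G56540 of only −0.10 (SE 0.08) at a weak signal. The most opposite were AT5G42370, AT1G08220 and AT5G16860, with r of −0.998, −0.993 and −0.993 and changes of 0.22, 0.39 and 0.50. None of these 3 passed in limma, where AT1G08220 had an adjusted p of 0.0771 and AT5G16860 of 0.0502, while with the replicate block these 2 passed, at 0.0404 and 0.0244. Among all other probe sets, ranked by likeness to TI2, AT2G43530 stood at number 885, AT2G43550 at 2524, AT2G43535 at 4204 and TI1 at 11167. These ranks follow the same contrast and are a description. With each genotype's mean taken away, r with TI2 over the 6 arrays was 0.77 for AT2G43535, 0.61 for AT2G43530, 0.58 for AT2G43550 and −0.60 for TI1, on arrays that share replicate numbers.

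**Figure D5:**
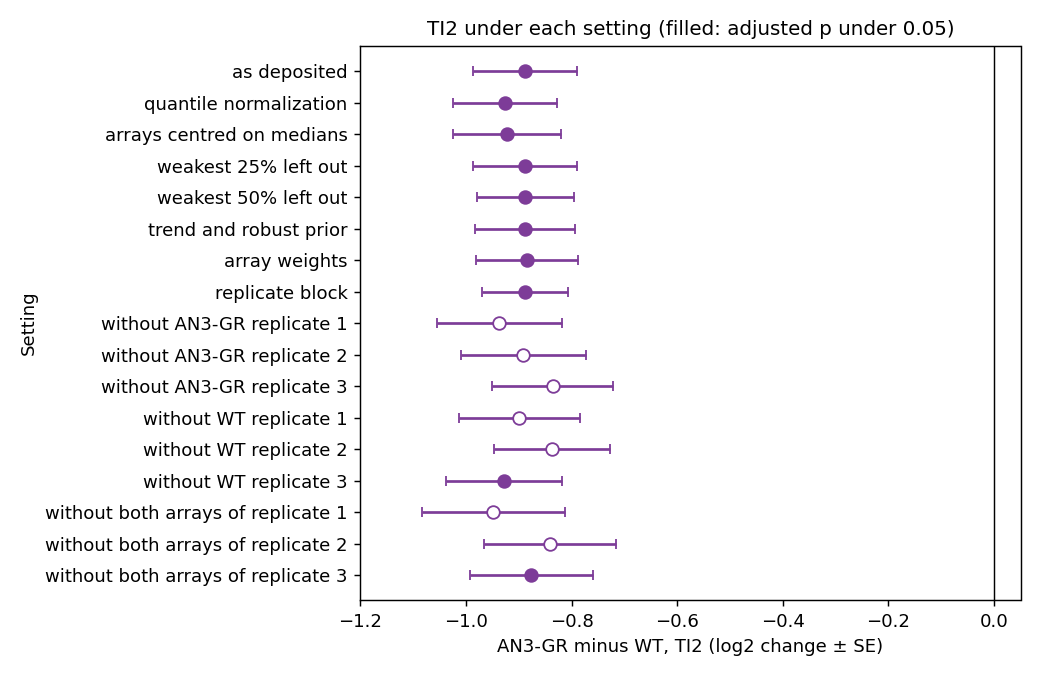
Log2 change of TI2, AN3-GR minus WT, with its standard error (horizontal axis) under each way of handling the arrays (vertical axis); filled circles have an adjusted p under 0.05 in limma. All values lie between −0.95 and −0.84, and the open circles are settings that leave out arrays.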

How the data were processed

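Transcripts were measured on 6 ATH1 arrays, 3 of AN3-GR and 3 of WT. The deposited values are log2 expression values of 1 probe set per locus, with RMA and limma, no versions, listed in the submitters' processing notes. The probe grouping and genome build are not given in the sources used here, so no coordinates are printed. RMA equalises the arrays' distributions, which removes shifts shared by all genes, and it compresses differences between weak signals. The RefSeq gene table (assembly TAIR10.1) held 21231 of the loci and lacked 197. There were 0 unused sample columns.

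The values were used as deposited, without a filter. The comparison used limma 3.58.1 under R 4.3.3 (lmFit and eBayes, 6 arrays, no covariate), two-sided, with Benjamini-Hochberg adjustment over all 21428 probe sets and a threshold of 0.05. The script was tested on simulated data. The number of arrays limits the precision. The p-values set each difference between genotypes against the spread between the repeats, which limma moderates with the spread of all probe sets.

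The replicate numbers are shared by both genotypes in the labels. Deviations from the group means correlated between arrays of the same number, with r of 0.161, 0.416 and 0.494 for numbers 1 to 3 across genes, each above 0.1, so the fit with the replicate block is given where it changed a call. The labels name no shared day.

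The members and lists were chosen with earlier results of these data known. Named were all members, AN3, the 3 nearest measured loci on each side and any inside the row, the 5 probe sets most like TI2 and the 3 most opposite, and the 2 largest changes per list, since no list member passed. LOX2, AOS, OPR3, TIFY10B, MYC2, TAT3, AT2G38870, PR1, PR5, CA1 and APL were added after their values were seen, as was the change of PSAD-1. The settings tried were another quantile normalization, median centring, leaving out the weakest 25% or 50% of probe sets, weights per array, an intensity trend with a robust prior, the replicate block, and leaving out single arrays or both arrays of a number.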

Additional observations from a re-analysis of the deposited data

How the results depend on the processing

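TI2 was lower in AN3-GR under all 16 other settings, between −0.95 and −0.84 on the log2 scale, and passed in 9 of them. Without a single array its change was −0.94 to −0.84, and without both arrays of replicate 1 or 2 it was −0.95 (limma, adjusted p = 0.222) and −0.84 (0.286), where only 2 arrays per genotype remained. AT2G43530, AT2G43535 and AT2G43550 stayed negative in all 16, with ranges of −0.55 to −0.30, −0.57 to −0.07 and −0.60 to −0.25. TI1 lay between −0.33 and 0.0791 without a single array and turned positive in 3 of its 15 settings (the filter on the weakest 50% removed it), without AN3-GR replicate 2 (0.07), WT replicate 3 (0.0791) and both arrays of replicate 2 (0.04), and the cause was not tested. The number of the 5 genes that passed was 1, against 3 with the replicate block, 0 to 1 without a single array and 0 without both arrays of replicate 1 or of replicate 2. Over all probe sets 169 passed, against 564 with the weakest 50% left out, 558 with a trend and robust prior, 1132 with array weights and 1420 with the replicate block. Without a single array the count was 9 to 779, and without both arrays of replicate 1, 2 or 3 it was 4, 6 and 74. Median centring gave 69 higher and 70 lower calls, so that 49.6% of calls were higher in place of 71.0%, and the median of all probe sets moved by −0.03. Apart from the calls of AT2G43530, AT2G43550, the list genes named with it, CA1, AT1G08220 and AT5G16860, the block changed no other call of a gene named here. Signals near the lower quartile, such as those of CHI, UPI and ACD6, limit what their changes show.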
